A study of Mus musculus with 12 samples.

Results

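The forkhead (Fox) transcription factor genes were followed in primary mouse oligodendrocyte precursor cells (OPCs) that were treated with an inhibitor of the methyltransferase EZH2, with interferon gamma (IFN-γ), with both, or with neither. The family is given here as 39 genes chosen by their symbols, from Foxa1 to Foxs1, and all 39 were found among the 55536 genes of the annotation. RNA was sequenced from 12 libraries, with 3 libraries in each of 4 groups, and the libraries of a group came from different litters. The groups were Ctr with no treatment, EZH2i with EPZ011989 (4 days at 1.5 μM, renewed each 48 h), IFN-γ at 100 ng/ml for 6 h, and IFN-γ with EZH2i, in which the cytokine was added for the last 6 h together with the inhibitor. All groups shared their source: brains of pups aged P4 to P6 from mice in which Sox10:Cre switches on EGFP, pooled over several brains. Cells were selected either as Sox10GFP+ by FACS or with CD140a beads, and were grown in proliferation medium with PDGFaa and bFGF. The sources do not say which library was selected in which way, and the labels name EAE as the mouse model although the protocols describe cultured cells of untreated pups.

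Forkhead proteins share a winged helix domain that binds DNA, and members of the FOXA group can bind closed chromatin. Many members are switched on in single embryonic tissues and specify them, such as FOXA2 in endoderm and floor plate, FOXF1 in the mesoderm around the gut and lung, FOXC1 in mesenchyme and neural crest derivatives, and FOXL2 in the ovary. Others, such as the FOXK, FOXN2, FOXN3, FOXO and FOXJ3 genes, are expressed in most cells and tie transcription to metabolism, stress and the cell cycle. EZH2 is the subunit of the Polycomb repressive complex that places H3K27me3, a mark that keeps developmental regulators with CpG-rich promoters silent in cells that do not use them.

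The libraries held between 17403896 and 66546017 counts (median 33625880), with Ctr replicate 2 the shallowest, so a single count was worth more in that library than in any other. Values are CPM, counts scaled to library size after TMM normalization, and means are given ± SD over 3 libraries. Where no library of a group had more than 3 counts for a gene, that gene is called at the detection floor in the group. The 8 OPC markers (Pdgfra, Cspg4 and others) were all above that floor and together gave 8559 to 8719 CPM in Ctr, 7187 to 7678 with EZH2i, 5636 to 7618 with IFN-γ and 4742 to 5692 with both. Markers of other cells were present too: 8 neuron markers gave 76.7 to 149 CPM in Ctr, 152 to 240 with EZH2i, 739 to 1413 with IFN-γ and 1084 to 1814 with both, and 6 astrocyte markers gave 810 to 1431, 1112 to 2036, 644 to 1624 and 1029 to 2136 CPM. The 8 oligodendrocyte markers gave 1897 to 2334 CPM in Ctr, 1114 to 1646 with EZH2i, 1770 to 2101 with IFN-γ and 1076 to 1619 with both. In bulk RNA, fewer cells of a type and less RNA per cell cannot be told apart.

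To show what kind of promoter the members have, the 250 bases upstream of a RefSeq start are printed for 5 genes that stand for the patterns described further on. Foxl2, at the floor in Ctr, and Foxc1, which was above it, were higher with EZH2i. Foxk2 was the most abundant member, Foxi1 was silent, and Foxp1 was induced by IFN-γ. Sequences are from RefSeq (GRCm38.p6), on the strand of the gene, and capitals mark each CpG dinucleotide, which reads the same on both strands. RefSeq starts can differ from those of the annotation used for the counts. By that annotation Foxl2 starts at 98955288, so its printed stretch lies inside the gene. Foxc1 starts there at 31806633, so its stretch runs past that start.
Foxl2 (chr9:98955357-98955606, plus strand): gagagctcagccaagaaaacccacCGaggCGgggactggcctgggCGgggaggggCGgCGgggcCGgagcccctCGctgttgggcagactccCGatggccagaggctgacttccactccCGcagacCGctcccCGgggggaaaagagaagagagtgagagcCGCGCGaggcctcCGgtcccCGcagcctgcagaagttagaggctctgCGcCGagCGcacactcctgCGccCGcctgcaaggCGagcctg
Foxc1 (chr13:31806396-31806645, plus strand): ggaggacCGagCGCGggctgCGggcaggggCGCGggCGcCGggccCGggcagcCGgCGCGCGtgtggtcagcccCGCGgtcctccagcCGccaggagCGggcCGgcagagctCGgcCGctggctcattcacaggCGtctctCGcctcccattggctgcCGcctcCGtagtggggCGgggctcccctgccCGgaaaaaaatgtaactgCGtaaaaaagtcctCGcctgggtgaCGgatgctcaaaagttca
Foxk2 (chr11:121259737-121259986, plus strand): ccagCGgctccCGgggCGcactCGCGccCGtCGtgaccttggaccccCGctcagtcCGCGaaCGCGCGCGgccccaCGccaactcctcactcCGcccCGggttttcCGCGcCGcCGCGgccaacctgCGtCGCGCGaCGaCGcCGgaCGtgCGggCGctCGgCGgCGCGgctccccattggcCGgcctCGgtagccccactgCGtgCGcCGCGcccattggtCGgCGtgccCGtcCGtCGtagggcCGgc
Foxi1 (chr11:34208090-34208339, minus strand): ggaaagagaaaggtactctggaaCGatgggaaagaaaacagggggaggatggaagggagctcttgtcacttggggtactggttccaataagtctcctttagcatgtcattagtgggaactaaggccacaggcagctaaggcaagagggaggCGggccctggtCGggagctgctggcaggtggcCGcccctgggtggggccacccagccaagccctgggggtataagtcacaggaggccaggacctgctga
Foxp1, start of its downstream transcripts (chr6:99028299-99028548, minus strand): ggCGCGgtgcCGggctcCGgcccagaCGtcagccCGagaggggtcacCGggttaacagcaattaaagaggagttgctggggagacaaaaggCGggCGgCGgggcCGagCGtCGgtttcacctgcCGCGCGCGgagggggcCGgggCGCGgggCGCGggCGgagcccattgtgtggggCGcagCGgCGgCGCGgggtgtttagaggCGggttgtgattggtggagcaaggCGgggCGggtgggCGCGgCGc

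These stretches held 22 CpG in Foxl2, 29 in Foxc1, 48 in Foxk2, 4 in Foxi1 and 34 in Foxp1, against a median of 6 over 32851 RefSeq promoter windows of the same length. RefSeq windows were found for 24 of the 39 members, 29 windows in all, and their median was 17 CpG. By expression class, the median was 29 CpG in 11 windows of broadly expressed members, 16 in 13 windows of low or group-dependent members and 7 in 5 windows of silent members. The silent members with a window ranged from 4 CpG in Foxi1 to 17 in Foxn4, and Foxd4 held 12. Members called higher for the mean of both EZH2i effects had 6 windows in 4 genes, with a median of 16.5 CpG and a range of 6 to 29. Of these, Foxd1 held 12 and the windows of Foxa2 held 6, 20 and 13. The printed Foxl2 and Foxc1 are thus the CpG-richest of the called members with a window. Foxf1, also called, had no window. No window of the printed 5 held a match, on either strand, to the forkhead motif GTAAACA, found in 3.17%. The interferon-stimulated response element (GAAA, any 2 bases, GAAA), found in 2.98% of all windows, was matched in the Foxi1 stretch and in none of the other 4. These counts describe the windows and were not tested.

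**Figure D1:**
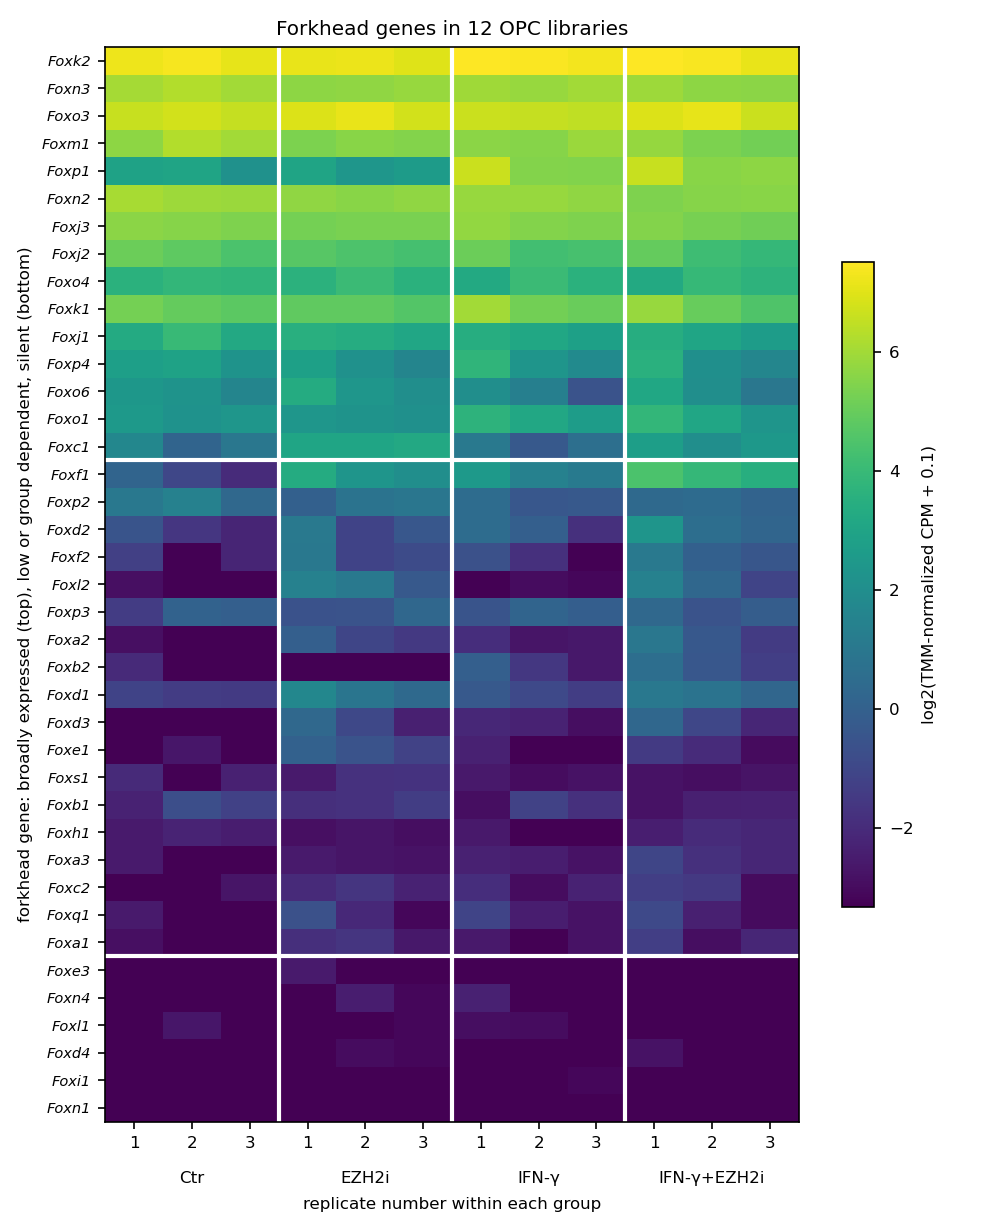
Heat map of all 39 forkhead genes (rows) in the 12 libraries (columns, by group and replicate number), coloured by log2 of TMM-normalized CPM plus 0.1; white lines separate groups and, from top to bottom, 15 broadly expressed, 18 low or group-dependent and 6 silent members. Among the broadly expressed rows, Foxp1 is brighter in all 6 libraries with IFN-γ and Foxc1 is brighter with EZH2i. Foxo1, Foxp4 and Foxo6 also vary between libraries, Foxo6 from 0.586 CPM (IFN-γ replicate 3) to 10.1 (EZH2i replicate 1).

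The 39 members fell into 3 classes of expression, with no test involved. There were 6 silent members, with a mean under 0.1 CPM in each group, 15 broadly expressed members, with a mean of at least 1 CPM in each group, and 18 members that were low or dependent on the group. With TPM, which divides by transcript length, in place of CPM the counts were 12, 12 and 15. Summed over the family, TPM was 112 ± 18.3 in Ctr, 126 ± 20.1 with EZH2i, 139 ± 25.4 with IFN-γ and 130 ± 40.5 with both, so the total stayed within the spread of the libraries. A filter on low counts left 28 of the 39 members for testing, and 11 were not tested.

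The silent members were Foxd4, Foxe3, Foxi1, Foxl1, Foxn1 and Foxn4. Foxn1, the regulator of thymic epithelium that is mutated in nude mice, had 0 counts in all 12 libraries. Foxi1, which specifies acid-secreting cells of the inner ear and kidney, had 1 count in all, in IFN-γ replicate 3. Foxe3, a lens gene, had 2 counts, both in EZH2i replicate 1. Foxd4 had 3 counts, 2 of them in EZH2i libraries and 1 in IFN-γ with EZH2i. Foxl1, a gene of gut mesenchyme, had 4 counts, and Foxn4, a regulator of retinal and spinal interneurons, had 7 counts, with 3 in EZH2i replicate 2, 3 in IFN-γ replicate 1 and 1 in EZH2i replicate 3. All 6 were at the detection floor in all 4 groups, so EZH2i for 4 days gave no detectable expression of them at this depth. A floor of 3 counts per library corresponds to a mean of 0.0783 CPM in EZH2i and 0.0979 CPM in IFN-γ with EZH2i.

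In the mean of its effects with and without IFN-γ, the members EZH2i raised by edgeR without the block were Foxa2, Foxd1, Foxf1 and Foxl2, all below 1 CPM on average in Ctr, and the broadly expressed Foxc1. Of the 24 members that were not broadly expressed, 17 had a higher mean in EZH2i than in Ctr, 17 had a higher mean in IFN-γ with EZH2i than in IFN-γ, and 14 were higher in both. At the detection floor were 14 members in Ctr and 9 in EZH2i, and 12 in IFN-γ and 7 in IFN-γ with EZH2i. That floor was worth a mean of 0.109 CPM in Ctr, 0.0783 in EZH2i, 0.0755 in IFN-γ and 0.0979 with both, so these numbers also depend on depth. Neither the counts of higher means nor those at the floor were set against all genes, and they were not tested. Against Ctr, the quasi-likelihood test of edgeR, adjusted by Benjamini-Hochberg over 18995 genes, called 3 members higher with EZH2i (Foxd1, Foxf1 and Foxl2) and 0 lower, where 0.405% of all genes tested were called higher and 0% lower. DESeq2 called 7 higher (these 3 with Foxa2, Foxc1, Foxd3 and Foxe1) and 0 lower, against 1.27% of all genes with an adjusted p called higher, and 3 members (Foxm1, Foxn2 and Foxn3) were lower at an unadjusted p under 0.05, against 1.86% of all genes. Against IFN-γ, the same test called 1 member higher in IFN-γ with EZH2i (Foxl2) and 0 lower, against 0.347% higher and 0.00526% lower of all genes, with 1 member (Foxn2) lower at an unadjusted p under 0.05 (2.10% of all genes) and 5 higher by DESeq2 (Foxa2, Foxc1, Foxd1, Foxf1 and Foxl2, against 1.04% of all genes). The libraries of this second comparison were treated as paired by replicate number. With the replicate as a block, edgeR called 8 members higher and 0 lower, against 3.11% higher and 0.827% lower of all genes. The 8 were Foxa2, Foxc1, Foxd1, Foxd3, Foxf1, Foxf2, Foxl2 and Foxo3. Against Ctr, where libraries were not treated as paired, the blocked fit called 7 members higher and 0 lower. It called 4.06% of all genes there. In the mean of both EZH2i effects, 5 members were called higher by edgeR without the block (Foxa2, Foxc1, Foxd1, Foxf1 and Foxl2) and 0 lower, against 2.03% higher and 0.190% lower of all genes. There 4 members (Foxj3, Foxm1, Foxn2 and Foxn3) were lower at an unadjusted p under 0.05 (4.65% of all genes) and DESeq2 called 1 lower (Foxn2, against 0.624%). Each of the edgeR counts is of 28 members that passed the filter, while DESeq2 was run on all genes with its own filter. In 6 members (Foxa2, Foxc1, Foxd1, Foxf1, Foxf2 and Foxl2) every EZH2i library lay above every matching library without EZH2i at both IFN-γ levels, and in 1 (Foxn2) every one lay below, against 3.02% and 1.01% of all genes tested.

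**Figure D2:**
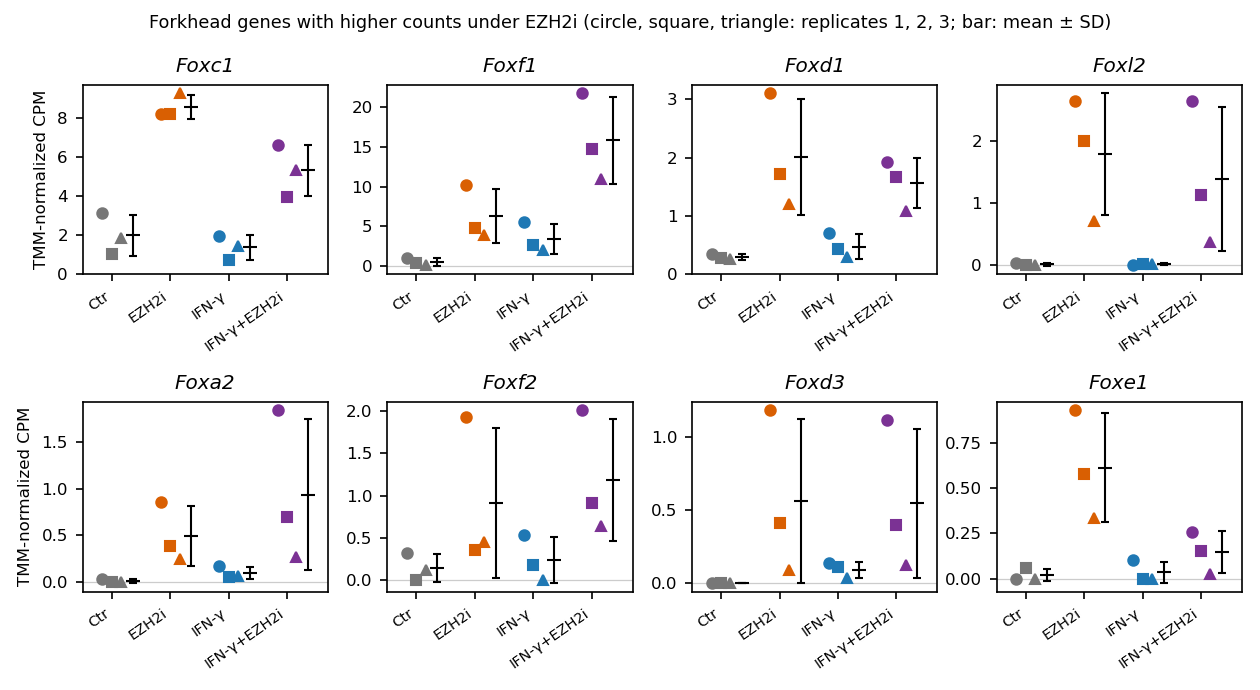
TMM-normalized CPM of 8 forkhead genes in each library, by group, with circle, square and triangle for replicates 1, 2 and 3 and a bar for the mean ± SD of 3 libraries; each panel has its own linear axis. In Foxc1, Foxf1, Foxd1, Foxl2, Foxa2 and Foxf2 the EZH2i libraries lie above those without EZH2i at both IFN-γ levels, and the circle is the highest point of most groups.

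Foxl2, the gene that maintains granulosa cells of the ovary and acts in the pituitary, was all but absent without the inhibitor. It had 1, 0 and 0 counts in the Ctr libraries and 74, 73 and 47 in the EZH2i libraries (2.64, 2.0 and 0.713 CPM). It had 0, 1 and 1 counts in IFN-γ and 62, 37 and 15 in IFN-γ with EZH2i (2.65, 1.12 and 0.372 CPM). Both groups without EZH2i were at the floor, and the groups did not overlap. Foxl2 was at least 16.4-fold higher in EZH2i than in Ctr and at least 18.3-fold higher in IFN-γ with EZH2i than in IFN-γ, computed against 3 counts in each library of the lower group. Without replicate 1 of IFN-γ with EZH2i the second bound was 9.91. The edgeR adjusted p was 0.0244 and 0.0347 in these comparisons and 0.00108 for the mean of both, and with the replicate block it was 0.00031 in the second.

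Foxd1, a gene of forebrain patterning and of the stroma of the kidney, had 0.354, 0.282 and 0.254 CPM in Ctr and 3.11, 1.73 and 1.20 in EZH2i. With IFN-γ it had 0.703, 0.426 and 0.293 CPM, and with both 1.92, 1.67 and 1.09. All libraries with EZH2i were above all libraries without it. The log2 fold change was 2.75 (SE 0.46, edgeR adjusted p = 0.0302) against Ctr and 1.74 (SE 0.44, adjusted p = 0.180, with the block 0.00293) against IFN-γ. The mean of both was 2.25 (SE 0.32, edgeR adjusted p = 0.00325).

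Foxf1, which builds the mesenchyme and vessels of gut and lung, moved with both treatments. It had 1.03, 0.395 and 0.153 CPM in Ctr, 10.2, 4.85 and 3.93 in EZH2i, 5.53, 2.61 and 2.08 in IFN-γ and 21.7, 14.8 and 10.9 in IFN-γ with EZH2i. Ctr was below every other group and IFN-γ with EZH2i was above every other group, while EZH2i and IFN-γ overlapped. On the log2 scale EZH2i changed it by 3.65 (SE 0.66, edgeR adjusted p = 0.0398) without IFN-γ and 2.23 (SE 0.57, adjusted p = 0.197, with the block 9.01e-05) with it. Its level with both treatments was 15.8 ± 5.47 CPM, the highest of the 5 members called for the mean of both EZH2i effects.

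Foxc1, a regulator of mesenchyme, eye and meninges, had the highest level in Ctr of the 5 members called for the mean of both EZH2i effects. It had 3.12, 1.02 and 1.85 CPM in Ctr, 8.22, 8.19 and 9.28 in EZH2i, 1.98, 0.719 and 1.46 in IFN-γ and 6.62, 3.98 and 5.34 in IFN-γ with EZH2i. The EZH2i libraries were above those without it at each IFN-γ level. The log2 fold change was 2.09 (SE 0.40) without IFN-γ and 1.94 (SE 0.41) with it, and neither passed alone, with edgeR adjusted p of 0.0563 and 0.0875, or 0.0168 and 0.0376 with no filter on low counts. With the block the second was 0.00118, and the mean of both was 2.01 (SE 0.29, edgeR adjusted p = 0.00337 without the block).

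Foxa2, which opens chromatin in endoderm and in dopaminergic precursors of the floor plate, had 1, 0 and 0 counts in Ctr and 24, 14 and 16 in EZH2i. It had 5, 2 and 4 counts in IFN-γ and 43, 23 and 11 in IFN-γ with EZH2i, or 1.84, 0.699 and 0.273 CPM. EZH2i was at least 4.54-fold above Ctr, or 2.88-fold without EZH2i replicate 1, and neither comparison passed alone without the block (edgeR adjusted p = 0.118 and 0.182). The mean of both passed with an edgeR adjusted p of 0.0105, or 0.0995 and no call on length-scaled TPM, and with the block the comparison within IFN-γ had 0.00287. The related Foxa1 and Foxa3 had at most 8 and 9 counts in any library and were not tested.

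The remaining members with more reads under EZH2i did not pass in the fit without the block. Foxd3, which keeps neural crest cells and pluripotent cells undifferentiated, had 0 counts in all Ctr libraries and 33, 15 and 6 in EZH2i, and 4, 4 and 2 in IFN-γ against 26, 13 and 5 in IFN-γ with EZH2i. It was at least 5.15-fold higher in EZH2i than in Ctr, or 2.31-fold without EZH2i replicate 1 (edgeR adjusted p = 0.214 with all libraries), and had 0.737 within IFN-γ, or 0.0371 with the block. Foxe1, a thyroid and palate gene, had 0, 1 and 0 counts in Ctr and 26, 21 and 22 in EZH2i, which is at least 5.63-fold higher (edgeR adjusted p = 0.128). With IFN-γ it had 3, 0 and 0 counts, and with both 6, 5 and 1, so that the groups were separate without IFN-γ and close to the floor with it. Foxf2, a gene of pericytes and gut mesenchyme, had 0.319, 0 and 0.119 CPM in Ctr and 1.93, 0.356 and 0.455 in EZH2i, with 0.536, 0.186 and 0 in IFN-γ and 2.01, 0.911 and 0.646 with both. Its log2 fold change was 2.5 (SE 1.15, edgeR adjusted p = 0.708) and 2.43 (SE 1.09, adjusted p = 0.761, with the block 0.0407). Foxd2, a gene of facial and kidney mesenchyme, had 0.603, 0.226 and 0.119 CPM in Ctr against 2.0, 0.356 and 0.667 in EZH2i, and 1.31, 0.878 and 0.185 in IFN-γ against 4.95, 1.40 and 1.07 with both, so its groups overlapped (edgeR adjusted p = 0.835 without IFN-γ, and 0.271 for the mean of both effects).

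Library numbers moved with these members. Replicate 1 was the highest library of its group in 5 of the 5 members called for the mean of both effects in Ctr, 4 in EZH2i, 4 in IFN-γ and 5 in IFN-γ with EZH2i, while this share was 41.7% to 57.8% over all genes called higher there and 33.2% to 37.9% over all genes tested. Without the 4 libraries numbered 1, an alternative added after the values were seen, the same 5 members passed for the mean of both effects, with edgeR adjusted p between 0.00709 (Foxf1) and 0.0455 (Foxa2), and 0 members passed in either comparison alone. Fitted to the libraries compared alone, Foxl2 remained called against Ctr, while Foxd1 (edgeR adjusted p = 0.0828) and Foxf1 (0.108) did not, and Foxl2 within IFN-γ had 0.157. The calls of the mean of both effects remained in all 12 fits that left out 1 library. Those of single comparisons did not. For EZH2i against Ctr, Foxf1 was lost without Ctr replicate 2 (edgeR adjusted p = 0.205) or 3 (0.153), EZH2i replicate 1 (0.123) or 2 (0.0980), IFN-γ replicate 2 (0.0598), or IFN-γ with EZH2i replicate 2 (0.0752) or 3 (0.0514). Foxd1 was lost without Ctr replicate 1 (edgeR adjusted p = 0.0993), 2 (0.151) or 3 (0.164), EZH2i replicate 1 (0.0945) or 2 (0.0852), or IFN-γ with EZH2i replicate 2 (0.0589). Foxl2 was lost without Ctr replicate 1 (edgeR adjusted p = 0.0977), 2 (0.133) or 3 (0.160), or EZH2i replicate 1 (0.0811) or 2 (0.0787). Within IFN-γ, Foxl2 was lost in 8 of the 12 fits, with adjusted p from 0.0574 without Ctr replicate 2 to 0.156 without IFN-γ replicate 3, and remained in those without Ctr replicate 3, EZH2i replicate 1, EZH2i replicate 3 or IFN-γ with EZH2i replicate 3.

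Several of these genes are expressed by vascular, mural and leptomeningeal cells, so the markers of those cells are given beside them. The 8 endothelial markers summed to 14.2 to 21.5 CPM in Ctr and 25.6 to 40.2 in EZH2i, and to 22.1 to 30.9 in IFN-γ and 31.9 to 49.9 with both, with Cdh5 at the floor in all groups but EZH2i and 0 of the 5 tested markers called in either comparison by edgeR without the block or by DESeq2. Flt1 was at 12.3 ± 3.42, 25.4 ± 6.80, 10.9 ± 4.38 and 22 ± 8.21 CPM in the 4 groups and was called higher within IFN-γ with the block (edgeR adjusted p = 0.487, with the block 0.00109) and for the mean of both effects by DESeq2. The 7 pericyte markers summed to 15.5 to 24.5, 13.7 to 21.6, 14.0 to 20.3 and 17.5 to 20.2 CPM in the same order, of which Kcnj8 alone was called higher in the mean of both effects (edgeR adjusted p = 0.0140) and, with the block or DESeq2, within IFN-γ (0.0503, with the block 0.00216). The 8 fibroblast and leptomeningeal markers summed to 14.3 to 29.3, 16 to 28.7, 11.4 to 29.1 and 12.8 to 32.8 CPM, with Slc6a13 and Slc22a6 at the floor in every group. Microglial markers summed to at most 1.70 CPM in any library, with Aif1, C1qa and C1qb at the floor throughout. The endothelial sum was higher in every EZH2i library at both IFN-γ levels, as the called members were, and the neuron sum was so without IFN-γ and overlapped with it. For the mean of both effects, edgeR without the block called 3 of the 8 neuron markers higher (Snap25, Syt1 and Stmn2), with all 8 above 0 and a median log2 fold change of 1.05, and Stmn2 was also called within IFN-γ. The oligodendrocyte gene Mbp was called lower (edgeR adjusted p = 0.0225). The part of these cells in the result was not tested.

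The 2 comparisons of EZH2i do not share libraries, and their difference was tested as an interaction. It was called for 0 of the 28 members and for 0% of all genes in edgeR, with 127 genes (0.669%) and 0 members at an unadjusted p under 0.05 and 0 genes called by DESeq2 or with the block. The effect with IFN-γ minus the effect without it was -1.43 on the log2 scale for Foxf1 (95% interval -3.26 to 0.41) and -1.0 for Foxd1 (-2.37 to 0.37). For Foxc1 it was -0.15, with an interval of -1.37 to 1.08. Intervals of this width leave differences of more than 2-fold unresolved for each of these genes.

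**Figure D3:**
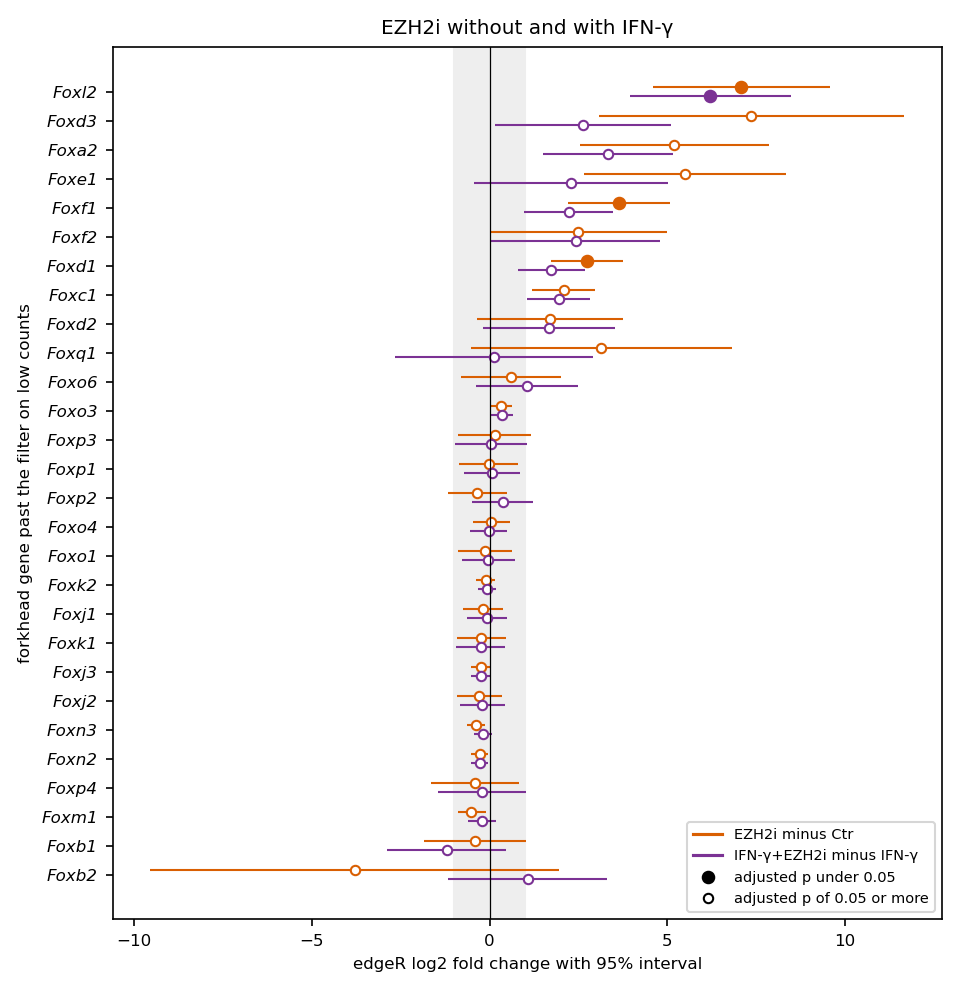
edgeR log2 fold change of EZH2i (horizontal axis, with 95% interval) for the 28 forkhead genes past the filter on low counts, without IFN-γ (orange) and with it (purple); filled points have an adjusted p under 0.05 and the grey band marks changes of less than 1. Foxl2, Foxd1 and Foxf1 carry filled points, 12 members have both intervals inside the band, and points of genes at the detection floor in a group depend on the small count that edgeR adds.

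The genes next to the called members were read as well, since several forkhead genes have a noncoding partner that starts close by on the other strand. By the annotation used for the counts, Foxl2os starts 11 bases from the start of Foxl2 and shares 12 exon bases with it. It had 0.0354, 0 and 0 CPM in Ctr, 3.07, 3.01 and 1.52 in EZH2i, 0.0335, 0.0266 and 0 in IFN-γ and 1.24, 2.61 and 1.04 in IFN-γ with EZH2i. It was called in both comparisons (edgeR adjusted p = 0.00418 and 0.00654) and was at least 23.3-fold and 21.6-fold higher. Foxd2os starts 384 bases from Foxd2 and rose from 0.308 ± 0.163 to 1.71 ± 0.418 CPM without IFN-γ and from 0.635 ± 0.0929 to 2.81 ± 0.449 with it (edgeR adjusted p = 0.0202 and 0.0277), whereas Foxd2 itself was not called. Fendrr, a long noncoding RNA that starts 1276 bases from Foxf1, had 0.0288 ± 0.0261, 0.258 ± 0.195, 0.192 ± 0.0795 and 1.09 ± 0.536 CPM in the 4 groups and was called for the mean of both effects (edgeR adjusted p = 0.0423) and, with the block only, within IFN-γ (0.253, with the block 0.0235). Gm12688, 1316 bases from Foxd3, was at the floor without EZH2i and had 0.271 ± 0.264 CPM in EZH2i and 0.211 ± 0.149 with both, and it was not tested. Apart from the 12 bases at Foxl2 these pairs share no exon bases. The library kit marks strand, but whether the counting used it is not given in the sources used here, so reads of a pair that overlap could not be told apart.

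**Figure D4:**
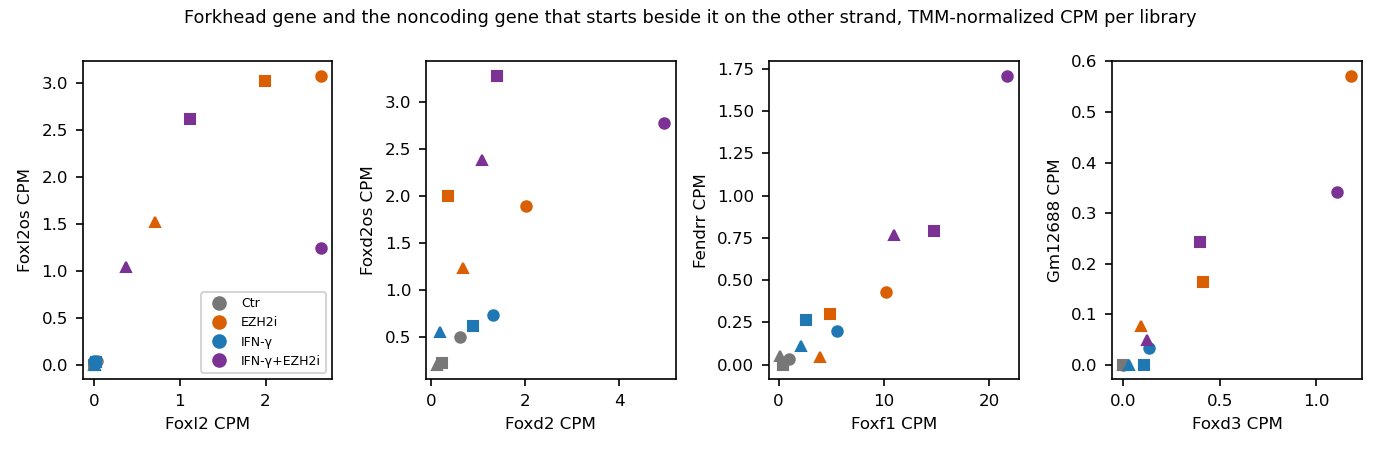
TMM-normalized CPM of 4 forkhead genes (horizontal axes) and of the noncoding gene that starts beside each on the other strand (vertical axes), 1 point per library, coloured by group and shaped by replicate number. In the Foxl2 and Foxd3 panels the libraries without EZH2i sit near 0 on both axes, and in the Foxd2 panel Foxd2os separates the EZH2i libraries where Foxd2 does not.

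Several members lie close to each other. On chromosome 13, Foxf2 lies 64840 bases from Foxq1 and 175230 bases from Foxc1. Foxq1, an epithelial and endothelial gene, had 2, 0 and 0 counts in Ctr and 15, 5 and 1 in EZH2i. It had 11, 3 and 3 counts in IFN-γ and 10, 3 and 1 with both. It was not called in an EZH2i comparison, and was called higher with IFN-γ against Ctr with the block only. Foxq1 shares 3200 exon bases with A530084C06Rik on the other strand, so the reads given to it are uncertain. Foxf2 and Foxc1 were both higher without overlap in EZH2i at both IFN-γ levels. On chromosome 8, Foxf1 lies 28027 bases from Foxc2, which lies 9045 bases from Foxl1. Foxc2, which forms lymphatic valves, had at most 8 counts in a library, from a mean of 0.0170 CPM in Ctr to 0.156 in EZH2i and from 0.101 to 0.189 with IFN-γ, and was not tested, and was higher without overlap in EZH2i than in Ctr, as Foxf1 was, and Foxl1 was silent. The annotated gene Gm20388 (119910841 to 124345722) spans all 3 on the same strand without sharing exon bases with them. It starts 1173545 bases upstream of Foxf1. Gm20388 had 49.3 ± 5.0, 73.6 ± 3.89, 79.0 ± 13.0 and 108 ± 8.36 CPM in the 4 groups. It was called higher for the mean of both EZH2i effects (edgeR adjusted p = 0.0152). It was also called higher with IFN-γ against Ctr (edgeR adjusted p = 0.00677) and in cells with EZH2i (0.0234). On chromosome 4, the silent Foxe3 lies 16274 bases from Foxd2.

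Among the broadly expressed members, 12 of 15 were stable under EZH2i, meaning that the 95% interval of the log2 fold change lay between -1 and 1 in both comparisons. These were Foxj1, Foxj2, Foxj3, Foxk1, Foxk2, Foxm1, Foxn2, Foxn3, Foxo1, Foxo3, Foxo4 and Foxp1. Their log2 fold changes ran from -0.51 to 0.31 without IFN-γ and from -0.28 to 0.35 with it, and 0 of the 12 were called in either comparison by edgeR without the block (smallest adjusted p = 0.340 and 0.588) or by DESeq2, while with the block Foxo3 was called higher within IFN-γ. For the mean of both effects, the block called 1 of the 12 higher (Foxo3) and 3 lower (Foxj3, Foxn2 and Foxn3), where it called 12.2% of all genes. DESeq2 called Foxn2 lower for that mean. At an unadjusted p under 0.05 were 4 without IFN-γ (Foxm1, Foxn2 and Foxn3 lower, Foxo3 higher) and 2 with it (Foxn2 lower, Foxo3 higher). In both comparisons 10 of the 12 were below 0, with medians of -0.21 and -0.14, where the median of all genes tested was 0.01 and -0.01. The exceptions were Foxc1, described above, and Foxo6 and Foxp4, whose intervals were wider than the band.

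Foxk2, a factor that restrains autophagy and promotes glycolysis, was the most abundant member with a mean of 29.2 TPM over all libraries. It had 149, 163 and 139 CPM in Ctr, 142, 148 and 128 in EZH2i, 182, 175 and 160 in IFN-γ and 178, 167 and 143 with both. The groups with and without EZH2i overlapped, and the log2 fold change was -0.11 (95% interval -0.37 to 0.14) and -0.08 (-0.34 to 0.17). Foxn3, a repressor that acts in the DNA damage checkpoint, averaged 15.8 TPM and had 66.7, 75.9 and 64.9 CPM in Ctr against 50.4, 52.5 and 57.3 in EZH2i, a separation that did not pass (log2 fold change -0.37, interval -0.63 to -0.12, edgeR adjusted p = 0.340). With IFN-γ it had 62.7, 57.7 and 63.6 CPM against 61.1, 50.1 and 49.7 (-0.19, interval -0.45 to 0.06).

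Foxn2 was the member that lay lower in every EZH2i library at both IFN-γ levels. It had 67.4, 60.9 and 58.1 CPM in Ctr, 52.4, 48.0 and 52.9 in EZH2i, 57.6, 57.4 and 52.0 in IFN-γ and 42.6, 46.7 and 48.2 with both. The log2 fold change was -0.28 in each (intervals -0.51 to -0.05), with edgeR adjusted p of 0.508 and 0.588, and 0.0882 for the mean of both. Foxj3, which acts in spermatogenesis and muscle fibres, had 49.1, 46.3 and 43.0 CPM in Ctr and 38.0, 40.2 and 39.6 in EZH2i, and 54.1, 44.6 and 43.0 in IFN-γ against 45.2, 39.3 and 35.3 with both. Its log2 fold changes of -0.23 and -0.24 did not pass (edgeR adjusted p = 0.831 and 0.861).

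The FOXO genes are switched off by insulin and AKT signalling, which moves their proteins out of the nucleus. Foxo3 averaged 14.9 TPM and had 95.9, 110 and 93.9 CPM in Ctr against 122, 142 and 108 in EZH2i, with 99.5, 94.6 and 88.0 in IFN-γ against 123, 137 and 100.4 with both. The groups overlapped without IFN-γ and were separate with it. Its log2 fold change was 0.31 (interval 0.00 to 0.62, edgeR adjusted p = 0.705) and 0.35 (0.04 to 0.66, adjusted p = 0.650, with the block 0.0469). Foxo4 lay at 13.3 ± 1.34, 13.6 ± 2.61, 12.7 ± 3.7 and 12.5 ± 2.90 CPM in the 4 groups. Foxo6, a FOXO member of neurons, had 5.21, 4.57 and 2.92 CPM in Ctr, 10.1, 5.07 and 4.03 in EZH2i, 4.02, 2.45 and 0.586 in IFN-γ and 8.58, 3.98 and 1.86 with both, so its groups overlapped in each comparison. Of 13 genes upstream of FOXO (receptors, PI3K subunits, AKT and Sgk1 among them), edgeR without the block and DESeq2 called 0 in an EZH2i comparison. Irs1 alone was lower at an edgeR unadjusted p under 0.05, within IFN-γ and for the mean of both effects. With the block, edgeR called 1 of the 13 for that mean (Irs1, lower, adjusted p = 0.0355), where 12.2% of all genes were called. Of 21 tested FOXO target genes, edgeR without the block called 0 in either comparison and Txnip alone, higher, for the mean of both. With the block Txnip was also called within IFN-γ (edgeR adjusted p = 0.370, with the block 0.000604), and DESeq2 called Txnip and Pink1 for the mean. For the mean, the block called 5 of the 21 higher and 1 lower (Cdkn1b, edgeR adjusted p = 0.000847), where it called 12.2% of all genes. Against Ctr it called 2 higher and 1 lower (Cdkn1b, 0.00362), where it called 4.06% of all genes. In the single comparisons, 3 had an unadjusted p under 0.05 without IFN-γ and 2 with it, and DESeq2 called 1 (Txnip) without IFN-γ.

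Foxm1, which drives mitotic genes, averaged 13.5 TPM and had 51.5, 75.9 and 64.7 CPM in Ctr against 41.6, 48.5 and 44.9 in EZH2i. With IFN-γ it had 49.2, 47.0 and 58.4 CPM against 56.1, 41.6 and 36.3. The log2 fold change was -0.51 (interval -0.90 to -0.11, edgeR adjusted p = 0.453) without IFN-γ and -0.21 (-0.60 to 0.18) with it. Of 18 FOXM1 targets such as Plk1, Ccnb1 and Cenpf, edgeR without the block called 0 in any comparison, with 0 at an unadjusted p under 0.05 in either EZH2i comparison, and DESeq2 called 1 (Cdc25b, lower with IFN-γ). With the block edgeR called 3 lower with IFN-γ against Ctr (Birc5, Cdc25b and Cenpf) and 1 lower in cells with EZH2i (Cdc25b). Of all genes it called 8.80% and 8.30% lower in these comparisons. The list had a median log2 fold change of -0.14 without IFN-γ and -0.01 with it. Foxj1, the master regulator of motile cilia, had 11.5 ± 3.57, 10.1 ± 1.54, 8.73 ± 1.78 and 8.29 ± 2.15 CPM in the 4 groups. Of 15 tested cilia genes of the FOXJ1 list of 24, edgeR without the block and DESeq2 called 0 in an EZH2i comparison, and 0 had an edgeR unadjusted p under 0.05 there. With the block, edgeR called 1 higher for the mean of both effects (Ccdc39, adjusted p = 0.0348), where it called 12.2% of all genes. The 6 ependymal markers summed to between 0.759 and 1.99 CPM in any library.

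Of the FOXP genes, Foxp4 had 6.29 ± 1.48, 4.74 ± 2.05, 7.26 ± 5.33 and 6.24 ± 4.69 CPM. Foxp2, a gene of speech circuits, had 1.90 ± 0.723, 1.46 ± 0.492, 0.899 ± 0.354 and 1.15 ± 0.146 CPM and was not called. Foxp3, which defines regulatory T cells, had 0.702 ± 0.366, 0.756 ± 0.317, 0.816 ± 0.205 and 0.850 ± 0.289 CPM, while the T cell markers Cd3e, Cd3d and Cd3g were at the floor in every group. Foxp3 shares 590 exon bases with Ccdc22, 266 with Ppp1r3f, 373 with Gm36995 and 853 with Flicr, and Ccdc22 had a mean of 28.5 to 31.0 CPM, so the reads given to Foxp3 are uncertain. Foxb1, a gene of the mammillary region, had 0.312 ± 0.201 CPM in Ctr and 0.0777 ± 0.0306 with both, and was not called in any comparison. Foxs1 and Foxh1 had at most 13 and 5 counts in any library and were not tested.

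With IFN-γ for 6 h, the share of members called was close to that of all genes without the block. edgeR with Benjamini-Hochberg adjustment called 2 higher against Ctr (Foxf1 and Foxp1) and 0 lower, where 6.65% of all genes were called higher and 2.10% lower, and 1 member (Foxp2) was lower at an unadjusted p under 0.05, as were 7.28% of all genes. In cells with EZH2i it called 2 higher (Foxb2 and Foxp1) and 0 lower, against 5.90% and 2.17%, and 1 member (Foxe1) was lower at an unadjusted p under 0.05, as were 7.36% of all genes. DESeq2 called the same 2 members higher in each comparison, against 6.45% and 5.93% of all genes, and 0 lower. By the correlation check described under processing, the libraries of both comparisons were treated as paired by replicate number. With the block, 7 were called higher against Ctr (Foxa2, Foxb2, Foxd3, Foxf1, Foxo1, Foxp1 and Foxq1) and 1 lower (Foxo6), against 12.4% and 8.80% of all genes. In cells with EZH2i the blocked fit called 4 higher (Foxb2, Foxf1, Foxo1 and Foxp1) and 2 lower (Foxc1 and Foxe1), against 11.0% and 8.30%.

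Foxp1, a repressor that acts in lymphocyte, lung, heart and neuronal development, gained more CPM with IFN-γ than any other member. It had 7.41, 7.96 and 4.31 CPM in Ctr and 99.1, 45.2 and 43.3 in IFN-γ. It had 7.86, 5.12 and 6.10 CPM in EZH2i and 96.0, 48.4 and 51.5 with both. Every library with IFN-γ was above every library without it, and replicate 1 was the highest of both IFN-γ groups. The log2 fold change was 3.27 (SE 0.40, edgeR adjusted p = 0.000187) without EZH2i and 3.36 (SE 0.40, adjusted p = 0.000141) with it, and both calls remained without any 1 library. EZH2i itself moved Foxp1 by -0.03 (interval -0.86 to 0.80) and 0.06 (-0.73 to 0.85).

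Foxp1 lies on chromosome 6 on the minus strand and has several annotated starts, and the counts of its transcripts were summed by start. The 6 transcripts that start downstream, between 99027991 and 99028942, at the CpG-rich stretch printed above, had 2.86 ± 1.25 CPM in Ctr, 3.19 ± 1.88 in EZH2i, 36.7 ± 26.3 in IFN-γ and 35.8 ± 22.3 with both. Their share of Foxp1 counts ran from 34.9% to 53.8% over the Ctr libraries and from 48.0% to 67.8% over the IFN-γ libraries, so the ranges overlapped. The 6 transcripts of the middle start, at 99163018, had 1.18 ± 0.667 CPM in Ctr and 4.37 ± 2.78 in IFN-γ, and their share was 9.64% to 20.5% in Ctr and 5.30% to 7.62% in IFN-γ, without overlap. The 4 transcripts from the start near 99435345 had 2.06 ± 0.415 CPM in Ctr and 12.8 ± 2.40 in IFN-γ, and the 4 from the start near 99266515 had 0.199 ± 0.266 and 7.06 ± 4.51. Those from the start farthest upstream, near 99520997, had 0.0857 ± 0.0334 and 0.181 ± 0.243. More counts with IFN-γ were thus assigned to transcripts of several starts. Transcripts of one gene share most exons and Salmon divides their reads by estimation, so values per start are less certain than the gene total.

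**Figure D5:**
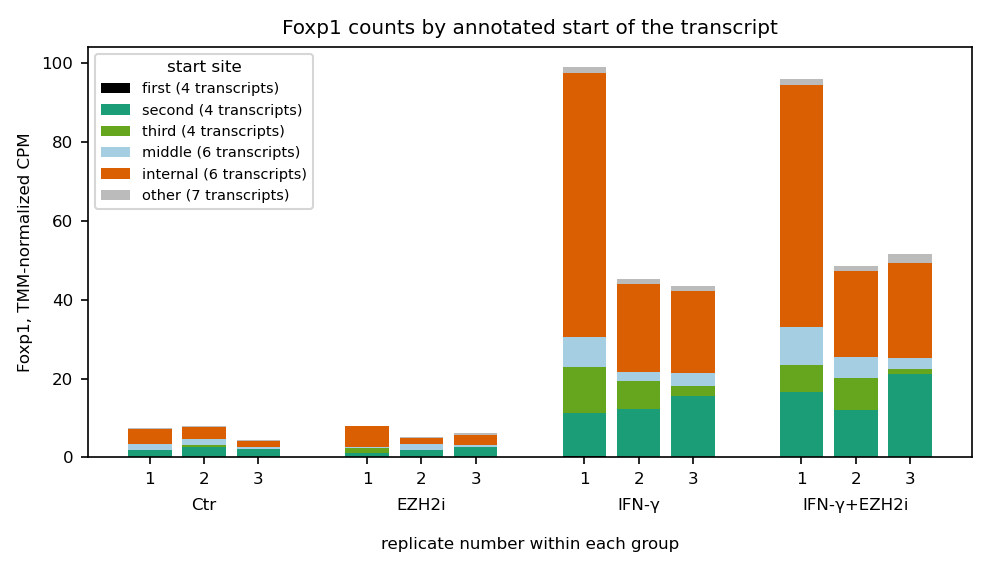
Foxp1 counts as TMM-normalized CPM (vertical axis) in each of the 12 libraries (bars, by group and replicate number), stacked by the annotated start of the transcripts, named from the most upstream to the downstream start called internal. All 6 bars with IFN-γ are at least 43.3 CPM high and all 6 without it at most 7.96, and replicate 1 is the tallest in both IFN-γ groups.

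Foxf1, the other member called against Ctr, had the values given above. Its log2 fold change for IFN-γ was 2.76 (SE 0.65, edgeR adjusted p = 0.0194, with the block 7.67e-06) without EZH2i and 1.33 (SE 0.55, adjusted p = 0.216, with the block 0.00018) with it. The first of these calls was lost without Ctr replicate 2 (edgeR adjusted p = 0.0895) or 3 (0.0722) or IFN-γ replicate 1 (0.0642), and with only the libraries compared (0.0576). The comparisons of IFN-γ and of EZH2i against Ctr share the Ctr libraries.

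Foxb2, a gene of early neural and thalamic development, was detected almost only with IFN-γ. It had 4, 0 and 0 counts in Ctr, 0 in all EZH2i libraries, 26, 9 and 4 in IFN-γ and 33, 22 and 12 with both. In cells with EZH2i it was at least 10.1-fold higher with IFN-γ, or 6.17-fold without replicate 1 of IFN-γ with EZH2i (edgeR adjusted p = 0.0278, with the block 0.000355). In cells without EZH2i the groups overlapped, with 0.142 CPM in Ctr replicate 1 and 0.0617 in IFN-γ replicate 3. The edgeR adjusted p there was 0.270, with the block 0.0216. The call was lost without EZH2i replicate 1 (edgeR adjusted p = 0.0601), 2 (0.0746) or 3 (0.0940) or without replicate 1 (0.0657) or 2 (0.0600) of IFN-γ with EZH2i.

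Foxo1, the FOXO member of liver, lymphocytes and endothelium, had 5.60, 4.46 and 5.12 CPM in Ctr and 12.8, 9.0 and 6.28 in IFN-γ, and 5.0, 4.68 and 4.28 in EZH2i against 14.2, 8.38 and 4.84 with both. The log2 fold changes of 0.88 (SE 0.35) and 0.97 (SE 0.35) did not pass without the block (edgeR adjusted p = 0.180 and 0.138) and had 0.0280 and 0.0207 with it, and the groups were separate without EZH2i and overlapped with it. Of the FOXO targets, Bcl2l11, Gadd45b, Txnip and Tnfsf10 were called higher with IFN-γ in both comparisons, and of the upstream genes Akt2 was called higher in both, Igf1r higher against Ctr and Irs1 lower in cells with EZH2i. Foxc1 was lower with both treatments than with EZH2i alone by 0.69 on the log2 scale (edgeR adjusted p = 0.423, with the block 0.0405), with no overlap between 8.19 to 9.28 and 3.98 to 6.62 CPM. Foxe1 fell from 26, 21 and 22 counts in EZH2i to 6, 5 and 1 with both by the blocked fit only (log2 fold change -2.14, edgeR adjusted p = 0.228, with the block 0.0278). Foxo6os, an antisense transcript that starts 4001 bases from Foxo6, was lower with IFN-γ (0.425 ± 0.0894 against 0.0663 ± 0.0629 CPM, edgeR adjusted p = 0.0465), and Foxo6 had an adjusted p of 0.568, or 0.0245 with the block. The neuron markers Syt1, Stmn2 and Tubb3 and the T cell gene Lck were called higher with IFN-γ in both comparisons, and the OPC genes Pdgfra and Cspg4 lower, and the part of other cells in the forkhead values was not tested.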

How the data were processed

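RNA was sequenced from 12 libraries of cultured mouse OPCs (TruSeq Stranded Total RNA). Per the labels and the study's methods, the authors trimmed reads and quantified them with Salmon 0.8.2 against mm10 (GRCm38), and also used STAR and DESeq2; Salmon's strand setting is not given in the sources used here. The deposited values used here are Salmon's estimated counts per transcript. The deposited TPM, normalized for length and depth by the authors, served for levels between genes. Tables of the authors' own comparisons (fold changes and p-values) were not used.

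Counts of all 141862 transcripts were summed per gene (GENCODE M21, 55536 genes) and rounded. Groups came from the sample labels, with 3 libraries each. After filterByExpr (18995 genes) and TMM scaling, edgeR 4.0.16 (R 4.3.3) fitted a quasi-likelihood model with group only to all 12 libraries. Calls are Benjamini-Hochberg adjusted p under 0.05 over all genes tested. Contrasts were EZH2i against Ctr, IFN-γ with EZH2i against IFN-γ, their mean, their difference (interaction), and IFN-γ at each EZH2i level. The fit was tested on simulated data.

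Replicate numbers come from the labels, and the libraries of a group came from different litters. As a check of pairing, deviations from group means were correlated between same-numbered libraries. The r was 0.741, 0.638 and 0.748 for IFN-γ with EZH2i and IFN-γ, 0.627, 0.105 and 0.652 for IFN-γ and Ctr, and 0.605, 0.633 and 0.686 for IFN-γ with EZH2i and EZH2i, so blocked values are given for these comparisons. It was 0.583, 0.0929 and 0.609 for EZH2i and Ctr, which were treated as unpaired. The cutoff was an r of 0.1, and Ctr replicate 2 lay close to it against both EZH2i and IFN-γ. Which comparisons were blocked thus rests on a narrow margin. The comparisons treated as paired also link same-numbered libraries of EZH2i and Ctr, so leaving that comparison unblocked follows from the cutoff alone. Between libraries of a group, counts differed by far more than sampling noise (chi-square per gene 35.64 or more), so none was merged.

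Given in full were members called in a comparison with or without the block and the 3 with the highest mean TPM; Foxm1 and the members at low counts are outside this rule and were chosen with their values known. The members and all gene lists were chosen with earlier results of these data known. Sequences and CpG counts are from RefSeq windows (GRCm38.p6), 250 bases before a start. Alternatives were DESeq2 1.42.0, RLE factors, other filters, length-scaled TPM, fewer libraries and a fold threshold. Intervals and floors cover the spread between libraries or counting error only.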

Additional observations from a re-analysis of the deposited data

Results flagged for a closer look

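Foxh1, a factor of nodal signalling in the early embryo, was lower with each treatment alone than in Ctr and higher with both than with either alone, and in each of these 4 comparisons the CPM of the libraries did not overlap. It had 2, 2 and 5 counts in Ctr, 1, 2 and 2 in EZH2i, 2, 0 and 0 in IFN-γ and 2, 5 and 5 in IFN-γ with EZH2i. As mean CPM, EZH2i minus Ctr was -0.049, while IFN-γ with EZH2i lay above IFN-γ. IFN-γ minus Ctr was -0.067, while IFN-γ with EZH2i lay above EZH2i. EZH2i and IFN-γ were both at the detection floor. Foxh1 did not pass the filter on low counts, the difference was not tested, and no library held more than 5 counts, so these values rest on few reads.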

How the results depend on the processing

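No value changed direction under any alternative listed here. For EZH2i against Ctr the count of members called (3) was 7 with DESeq2, 1 with only the libraries compared, 0 without the 4 libraries numbered 1 and 0 to 4 without 1 library. Within IFN-γ the count (1) was 5 with DESeq2, 2 with no filter, 0 with a mean of at least 1 CPM, 0 with only the libraries compared, 0 without the libraries numbered 1 and 0 to 1 without 1 library. For the mean of both effects the count (5) was 9 with DESeq2 (8 higher and 1 lower), which called 840 of 22442 genes there. It was 3 with a mean of at least 1 CPM, where Foxa2 and Foxl2 were below the filter, and 5 to 7 without 1 library. With no filter, Foxd3 (edgeR adjusted p = 0.0138) and Foxe1 (0.0308) were also called. For IFN-γ against Ctr (2) it was 1 with only the libraries compared and 1 to 2 without 1 library. For IFN-γ in cells with EZH2i (2) it was 1 with a mean of at least 1 CPM, where Foxb2 was below the filter, 1 with only the libraries compared and 1 to 3 without 1 library. The silent class held 12 members by TPM in place of 6. Leaving out the libraries numbered 1 was chosen after the data were seen. Other causes of these shifts were not tested.

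With the replicate block, the counts were 7 for EZH2i against Ctr, 8 within IFN-γ, 14 for the mean of both effects, 8 for IFN-γ against Ctr and 6 for IFN-γ in cells with EZH2i, and 0 for the interaction. Over all genes the blocked fit called 4.06%, 3.94%, 12.2%, 21.2% and 19.3% in the same order. EZH2i and Ctr were not treated as paired, since the correlation for replicate 2 was 0.0929, just under the cutoff of 0.1. IFN-γ and Ctr, with 0.105 for replicate 2, were treated as paired. For the mean of both effects, the 14 members called under the block were 11 higher and 3 lower. Among them, edgeR adjusted p was 0.000534 for Foxd3, 0.00483 for Foxe1, 0.0135 for Foxn2 and 0.0258 for Foxn3. These were not called without the block, nor were Foxd2, Foxf2, Foxo3 and Foxo6 (higher) and Foxj3 (lower).

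For members near the floor (Foxa2, Foxb2, Foxd3, Foxe1, Foxf2, Foxl2) depth limits the size of a change, and only lower bounds of folds are given where a group was at the floor. Libraries of a group came from different litters, so p-values cover litters cultured and treated in this study.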
